A study of Mus musculus with 12 samples.

Results

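The nuclear-encoded genes of oxidative phosphorylation were taken from an RNA-Seq count table by their symbols: all genes named Ndufa, Ndufb, Ndufc, Ndufs or Ndufv, Sdha to Sdhd, Uqcr, Cox4 to Cox8 and Atp5, without the assembly factors named Ndufaf and without names marked as pseudogenes. This gave 85 of the 24421 genes in the table, of which 38 belong to complex I by name, 4 to complex II, 8 to complex III, 18 to complex IV and 17 to complex V. Expression was measured in immortalized mouse embryonic fibroblasts (MEFs) of 2 genotypes, Null MEFs with intact TFEB and TFE3, and TFEB/TFE3 DKO MEFs, in which both transcription factors had been targeted by CRISPR. Cells of either genotype were left untreated or kept for 8 hr in 100 µM etoposide, a topoisomerase II poison that causes DNA double-strand breaks, with 3 libraries in each of the 4 groups. The control cells are untreated per the labels, whereas the study's methods name DMSO as the control, so untreated stands here for cells without etoposide. Each genotype was 1 cell line, so differences between the genotypes and differences between the lines cannot be told apart, and nothing in the sources used here says that the 3 libraries of a group came from separate cultures, so the p-values measure the spread between these libraries, which may be technical.

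The respiratory chain of the inner mitochondrial membrane passes electrons from NADH (complex I) and succinate (complex II) through complex III to oxygen (complex IV), and the ATP synthase (complex V) uses the proton gradient that complexes I, III and IV build. Most subunits are encoded in the nucleus and imported, and they have to be matched to the few that the mitochondrial genome encodes. TFEB and TFE3 are helix-loop-helix factors that bind E-boxes, and they are best known for the control of lysosomal and autophagy genes, with a role in mitochondrial metabolism as well.

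Of the 85 genes, 81 had enough counts to be tested. The other 4 (Cox7b2, Cox8b, Cox8c and Ndufs5) reached at most 2 counts in any library. Cox7b2 and Cox8c encode testis forms and Cox8b a muscle form, but Ndufs5 is an ordinary complex I subunit. Of the 75-base windows of its longest coding transcript, 24.1% also occur in transcripts of the pseudogene BC002163. A few names in the list stand for proteins at the edge of a complex: Ndufab1 is the mitochondrial acyl carrier protein, Ndufa4 is also counted with complex IV, Cox7a2l takes part in assembling supercomplexes, and Atp5s and Atp5sl are ATP synthase factors by name that are not structural subunits. The subunits encoded by mitochondrial DNA were not analysed here.

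The libraries held 45577023 to 104120871 counts on genes, and the 85 genes took 0.785% to 1.17% of them. Levels are given below as CPM, counts scaled to the depth of a library with its TMM factor, and levels of different genes are compared only per kb of transcript. Tfeb fell from 38.9, 39.2 and 42.1 CPM in untreated Null libraries to 4.60, 6.09 and 4.68 CPM in untreated DKO libraries, a log2 difference of -2.94 ± 0.09 (SE, edgeR adjusted p = 1.1e-14), whereas Tfe3 transcript was still present in DKO libraries, with a log2 difference of -0.29 ± 0.04 untreated and of -0.01 ± 0.04 (edgeR adjusted p = 0.87) after etoposide. With etoposide both transcripts fell, Tfeb by a log2 change of -1.91 ± 0.08 in Null and -1.42 ± 0.14 in DKO MEFs and Tfe3 by one of -0.72 ± 0.04 and -0.44 ± 0.04. Of 12 fibroblast markers, 11 exceeded 3 counts in every library. Their summed level was 7363 to 7496 CPM in untreated Null, 11923 to 12519 in untreated DKO, 4128 to 4221 in etoposide-treated Null and 5260 to 5572 in etoposide-treated DKO libraries. Summed striated muscle markers were at 38.7 to 43.8 CPM in the etoposide-treated Null libraries and at 4.52 to 6.38 CPM in all others, and summed immune markers at 12.2 to 13.4 CPM in those libraries and at 1.20 to 4.34 CPM in all others. Summed endothelial markers were at 0.154 to 0.270 CPM in untreated and 4.56 to 5.08 CPM in treated Null libraries, and at 0.0652 to 0.211 and 1.46 to 1.84 CPM in DKO libraries. Between the untreated genotypes, summed adipocyte markers were at 0.725 to 1.24 CPM in Null and 12.2 to 13.3 CPM in DKO libraries, and summed epithelial markers at 15.8 to 17.1 and 36.1 to 37.8 CPM. A level of 1 CPM in any library was reached by only 2 of 8 striated muscle, 1 of 6 immune and 2 of 5 endothelial markers. It was reached by 1 of 4 adipocyte and 3 of 6 epithelial markers. Sums other than that of the fibroblast markers thus rest on few genes and do not stand for whole cell types. The part of these markers in the results was not tested.

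Promoter sequences are shown first, since the factors targeted in DKO MEFs bind E-boxes. RefSeq (GRCm38.p6) promoters of 250 bases before to 50 bases after the start were matched to 70 of the 85 genes and searched on both strands for 4 motifs. The 6-base E-box CACGTG, the core of the site bound by TFEB and TFE3, was in the promoters of 7 genes (10.0%) and of 8.09% of all 27025 genes. Its 8-base form TCACGTGA was in that of Ndufa7 alone, and in 1.12% of all genes. Motifs of factors known for the control of respiratory genes were held by larger shares: GCATGCGC (NRF1) by 10 genes (14.3%, against 3.05% of all genes), CCGGAAG (ETS factors such as GABP) by 16 (22.9%, against 9.93%) and AAGATGGC (YY1) by 11 (15.7%, against 3.19%). These matches are descriptions of the letters and say nothing about binding.

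Below are 60-base windows around the E-box, in capitals, of Ndufa7 (the only member with the 8-base form), of Ndufv1 (a complex I core subunit lower in DKO MEFs) and of Atp5g1 (1 of 3 genes for the same ATP synthase subunit). The window of Atp5g2, the member of at least 10 CPM with the largest deficit in DKO MEFs, covers the 100 bases before its start and has no E-box, and the capitals mark overlapping NRF1 motifs on both strands.
Ndufa7, chr17:33824473-33824532, plus strand: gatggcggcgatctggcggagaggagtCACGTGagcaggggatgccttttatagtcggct
Ndufv1, chr19:4012892-4012951, minus strand: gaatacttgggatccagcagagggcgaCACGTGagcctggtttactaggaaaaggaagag
Atp5g1, chr11:96075643-96075702, minus strand: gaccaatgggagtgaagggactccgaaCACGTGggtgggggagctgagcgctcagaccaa
Atp5g2, chr15:102671048-102671147, minus strand: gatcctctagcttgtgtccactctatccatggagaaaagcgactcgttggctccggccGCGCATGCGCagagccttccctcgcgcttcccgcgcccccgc

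The 7 genes with an E-box did not move in 1 direction between the genotypes. Untreated, Ndufa7 (-0.68 on the log2 scale), Ndufv1 (-0.43), Atp5f1 (-0.41), Atp5g3 (-0.28) and Atp5g1 (-0.19) were lower in DKO MEFs, Atp5l (0.21) was higher, a call lost under scaling by library size alone (0.09), and Atp5sl (0.12) did not pass the test. Without the second untreated Null library Atp5g1 missed the threshold, at -0.12 (edgeR adjusted p = 0.054). After etoposide Ndufa7 (-0.52), Atp5f1 (-0.24), Ndufv1 (-0.21) and Atp5g3 (-0.11) were lower in DKO MEFs. Atp5sl (0.56) and Atp5g1 (0.18, lost in 4 of 15 alternatives) were higher, and Atp5l (0.005) was not called. Over all genes 33.3% were higher and 33.4% lower untreated, and 37.5% and 36.6% after etoposide. Of the transcript windows of Atp5l, 76.0% are shared, mostly with pseudogenes, and of those of Atp5f1 27.9%, so their counts are uncertain.

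Per kb of the transcript with the longest coding sequence, the ATP synthase beta subunit Atp5b was the most abundant member, at 913 CPM per kb over all 12 libraries, followed by Cox4i1 at 505 and Cox8a at 497 CPM per kb. The medians of the tested genes were 77.8 CPM per kb in complex I, 53.9 in complex II, 129 in complex III, 143 in complex IV and 147 in complex V. At the low end were forms known from other tissues: Cox6a2 (heart and skeletal muscle) at 0.978, Cox7a1 (muscle) at 0.356, Cox6b2 (testis) at 0.205 and Cox4i2 (lung and hypoxia) at 0.126 CPM per kb.

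The first question was how etoposide changed these genes in cells with intact TFEB and TFE3. In Null MEFs small rises of accessory and complex IV subunits prevailed, while 5 of the 7 core subunits of complex I fell, or 3 of them, with 1 rise, when libraries were scaled by size alone. Of 81 genes, 45 rose and 12 fell at an adjusted p under 0.05 (edgeR quasi-likelihood test, Benjamini-Hochberg), that is 70.4% of the members, where 79.4% of all 15220 genes tested were called (42.3% higher and 37.2% lower). The median log2 fold change of the members was 0.16, with the middle 50% between 0.0029 and 0.38, beside a median of 0.07 and a middle 50% from -0.41 to 0.88 over all genes. Without a filter on low counts the order turned, with the members' median below that of all genes by 0.16 in Null and by 0.14 in DKO MEFs. The members spread far less than genes at large: 3 of them (Cox6b2, Ndufa4l2 and Ndufb6) were called with a change of at least 1 on the log2 scale, where 30.5% of all genes were, and Cox6b2 passed the filter on low counts only through the treated Null libraries. A narrow spread was not particular to the members. In Null MEFs the middle 50% was -0.19 to 0.22 for mitochondrial and 0.20 to 0.34 for cytosolic ribosomal protein genes. For TCA cycle genes it was -0.36 to -0.05.

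In DKO MEFs 54 of 81 genes rose and 5 fell (72.8%, where 75.1% of all genes were called, 43.7% higher and 31.5% lower), with a median of 0.16 beside 0.14 over all genes. The 54 include Cox4i2, which passed the filter on low counts only through treated libraries. In both genotypes 35 genes rose (43.2%, where 30.5% of all genes did) and 4 fell (4.94%, where 24.2% of all genes did, among them Atp5c1, Ndufs1 and Sdhc, which rose in DKO MEFs when libraries were scaled by size alone). Another 5 (6.17%, where 5.4% of all genes did) fell in Null and rose in DKO MEFs (Ndufa9, Ndufs3, Ndufs7, Ndufs8 and Uqcrc2), although Ndufa9 and Uqcrc2 did not fall in Null MEFs under scaling by library size alone, and the fall of Ndufs3 missed the threshold in 7 of 15 alternatives and the rise of Uqcrc2 in 6 of 15. No member rose in Null and fell in DKO MEFs, where 3.52% of all genes did. Scaling by library size alone moved the median of all genes to 0.23 in Null and 0.41 in DKO MEFs. Under it 64 members rose and 6 fell in Null, where 7803 of all 15220 genes rose and 4396 fell. In DKO MEFs 78 members rose and 1 fell, where 9315 of all genes rose and 3006 fell. Summed over the members, levels were 9710, 9630 and 9630 CPM in untreated Null, 10110, 10450 and 10779 in etoposide-treated Null, 8951, 8876 and 8829 in untreated DKO and 9397, 9602 and 10015 in etoposide-treated DKO libraries. The etoposide-treated libraries were the higher ones in either genotype, without overlap.

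The difference between the 2 responses was tested by the interaction of genotype and etoposide, in which a positive value means a response that was more positive in DKO MEFs. Of 81 genes, 20 had a positive and 17 a negative interaction (45.7%, where 54.0% of all genes were called, 29.6% positive and 24.4% negative), with a median of -0.0028 beside 0.05 over all genes. The split depended on the scaling: with DESeq2's size factors 12 were positive and 24 negative, and with library size alone 31 and 9. Of all 15220 genes 3797 were positive and 4192 negative with DESeq2's size factors, and 5735 and 3055 with library size alone.

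**Figure D1:**
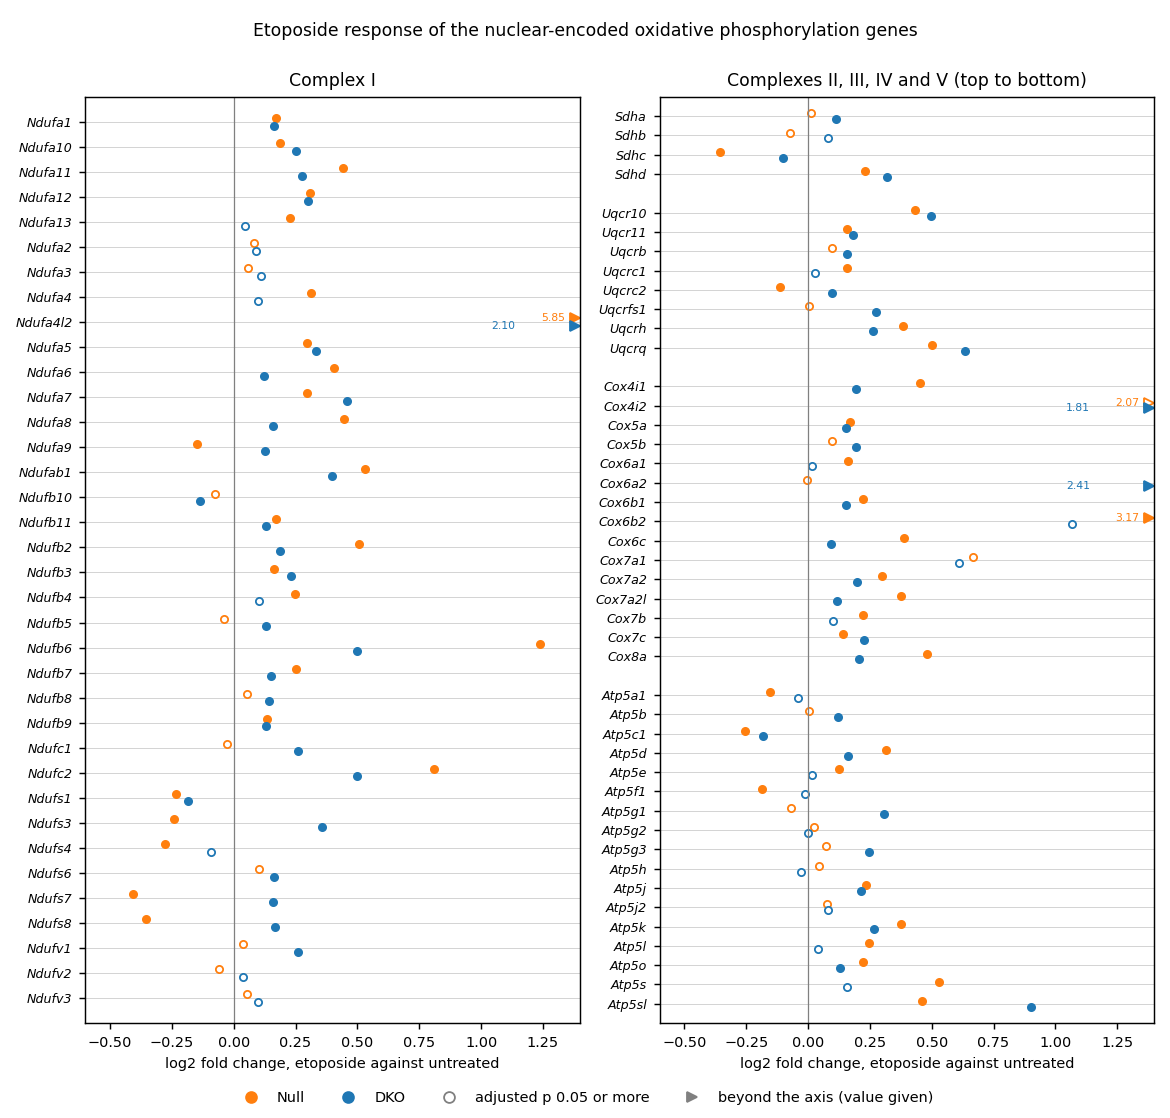
Log2 fold change with etoposide of 80 of the tested genes, Null in orange and DKO in blue, with open symbols for changes that missed the threshold and triangles for values beyond the axis. Most points lie to the right of 0, and several core genes of complex I stand to the left in Null MEFs, down to -0.41 for Ndufs7.

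Complex I has 7 nuclear-encoded core subunits (Ndufs1, Ndufs7 and Ndufv1 among them), which hold the flavin and the iron-sulfur clusters of the complex. In Null MEFs none of them rose and 5 fell, with a median of -0.24. With 1 choice of analysis changed at a time, 3 to 6 fell and at most 1 rose, and scaling by library size alone gave 3 falls, 1 rise and a median of -0.07. Of the 30 accessory subunits tested 20 rose and 2 fell, with a median of 0.21. In DKO MEFs 4 core subunits rose and 2 fell (median 0.16), beside 22 and 1 of the accessory subunits (median 0.15). The interaction was positive for 4 of the 7 core subunits and negative for none. Over all genes 42.3% rose and 37.2% fell in Null, 43.7% rose and 31.5% fell in DKO MEFs, and 29.6% had a positive and 24.4% a negative interaction.

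Ndufs7, which carries the last iron-sulfur cluster before ubiquinone, was at 47.5, 48.3 and 49.5 CPM in untreated Null and 35.1, 34.99 and 39.6 CPM in etoposide-treated Null libraries. In DKO MEFs it was at 48.99, 50.6 and 52.03 CPM untreated and 54.3, 57.5 and 57.1 CPM after etoposide. The 3 treated Null libraries were the lowest of the 12 and the 3 treated DKO libraries the highest. The fall in Null MEFs was -0.41 ± 0.05 (SE, edgeR adjusted p = 6.3e-07), the rise in DKO MEFs 0.16 ± 0.05 (SE, edgeR adjusted p = 0.0068), which missed the threshold without the first or the second untreated DKO library (0.11 and 0.13), and the interaction 0.56 ± 0.07 (SE, edgeR adjusted p = 1.8e-06).

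Ndufs8, which holds a further pair of clusters, was at 65.5, 67.9 and 64.2 CPM in untreated and 49.9, 51.8 and 52.98 CPM in treated Null libraries, and at 50.1, 46.8 and 48.9 CPM untreated and 53.1, 55.6 and 54.7 CPM treated in DKO libraries. Untreated Null libraries stood above all others. The responses were -0.35 ± 0.04 (SE, edgeR adjusted p = 3.1e-07) in Null and 0.17 ± 0.04 (SE, edgeR adjusted p = 0.0015) in DKO MEFs, with an interaction of 0.52 ± 0.06 (SE, edgeR adjusted p = 5.9e-07).

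Ndufs3, a structural core subunit next to the ubiquinone site, was at 53.5, 51.00 and 53.3 CPM in untreated Null, 48.8, 50.4 and 34.03 in treated Null, 51.1, 50.1 and 51.4 in untreated DKO and 64.4, 64.9 and 65.8 in treated DKO libraries. The third treated Null library lay far below the other two, and the 3 treated DKO libraries lay above all others. The fall in Null MEFs (-0.24 ± 0.09 SE, edgeR adjusted p = 0.026) was -0.09 without that library (adjusted p = 0.044) and missed the threshold in DESeq2 (-0.20, adjusted p = 0.12). The rise in DKO MEFs was 0.35 ± 0.09 (SE, edgeR adjusted p = 0.0023) and the interaction 0.60 ± 0.13 (SE, edgeR adjusted p = 0.00091), or 0.44 without the third treated Null library. Of the windows of the longest coding transcript of Ndufs3, 28.2% are shared, mostly with the pseudogene Gm12251.

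The 100 bases before the starts of these 3 genes, whose interactions were the largest positive ones among members of at least 10 CPM, are printed for comparison, with the only one of the 4 motifs in them, the ETS letters CCGGAAG, in capitals. Ndufs8 has these letters after its start, and Ndufs7 those of YY1 after its start.
Ndufs3, chr2:90904722-90904821, minus strand: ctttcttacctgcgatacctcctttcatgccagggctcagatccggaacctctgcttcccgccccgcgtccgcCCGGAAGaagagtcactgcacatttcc
Ndufs7, chr10:80249349-80249448, plus strand: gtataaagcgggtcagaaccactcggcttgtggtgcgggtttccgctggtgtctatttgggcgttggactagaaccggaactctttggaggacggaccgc
Ndufs8, chr19:3912775-3912874, minus strand: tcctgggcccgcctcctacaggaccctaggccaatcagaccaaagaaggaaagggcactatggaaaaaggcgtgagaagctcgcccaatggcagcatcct

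Ndufs1 did not share that pattern. Ndufs1, the largest subunit of the electron input module, was at 105, 105 and 107 CPM in untreated and 88.4, 90.3 and 90.7 CPM in treated Null libraries, and at 131, 130.5 and 129 CPM untreated and 114, 110.2 and 119.8 CPM treated in DKO libraries. Treated libraries were lower than untreated ones in either genotype, and all DKO libraries were above all Null libraries. The responses of Ndufs1 were -0.23 ± 0.03 (SE, edgeR adjusted p = 8.9e-06) and -0.18 ± 0.03 (SE, edgeR adjusted p = 0.00012), which under scaling by library size alone were -0.06, not called, and 0.09.

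Ndufv1, which binds NADH, rose in DKO MEFs (0.26), against 0.04 in Null, where a rise was called in 4 of 15 alternatives (0.08 to 0.20). The interaction of Ndufv1 was 0.22 ± 0.05 (SE, edgeR adjusted p = 0.00073). Ndufv2 was at -0.06 in Null and 0.04 in DKO MEFs, neither called, although it fell in Null MEFs without the third untreated library (-0.12) and rose in DKO MEFs under scaling by library size alone (0.31).

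Among the accessory subunits of complex I the largest change at a substantial level was that of Ndufb6, a membrane arm subunit. It was at 50.05, 51.01 and 50.7 CPM in untreated Null libraries and 116, 120.3 and 122 CPM after etoposide, and at 47.3, 47.4 and 47.7 CPM untreated and 62.9, 69.01 and 68.7 CPM treated in DKO libraries. All treated libraries were above all untreated ones, and the treated Null libraries were highest by a wide margin. The responses were 1.24 ± 0.04 (SE, edgeR adjusted p = 7.6e-15) and 0.50 ± 0.04 (SE, edgeR adjusted p = 4.5e-09), and the interaction -0.74 ± 0.06 (SE, edgeR adjusted p = 5.5e-09). The gene lies at chr4:40270591-40279421, minus strand (GRCm38), and 39.0% of its exonic bases overlap Smim27 on the other strand. Since the strand setting of the counting is not given in the sources used here, reads of the 2 genes may not be separated.

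Ndufc2, another membrane arm subunit, rose from 65.00, 61.5 and 63.1 to 109, 108 and 116 CPM in Null MEFs (0.81 ± 0.04 SE, edgeR adjusted p = 8.0e-12) and from 67.00, 73.3 and 69.1 to 95.9, 98.1 and 102 CPM in DKO MEFs (0.50 ± 0.04 SE, edgeR adjusted p = 9.7e-09). Treated libraries were higher than untreated ones in both genotypes, and the interaction was -0.31 ± 0.06 (SE, edgeR adjusted p = 0.00031). Ndufab1, the acyl carrier protein, rose in both as well, by 0.53 ± 0.09 (SE, edgeR adjusted p = 6.1e-05) from 22.4, 23.3 and 22.3 to 34.7, 37.1 and 26.2 CPM in Null and by 0.40 ± 0.09 (SE, edgeR adjusted p = 0.0011) from 25.4, 29.2 and 25.9 to 37.8, 34.6 and 34.2 CPM in DKO MEFs, with no overlap of treated and untreated libraries.

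Ndufb2 rose by 0.50 ± 0.06 (SE, edgeR adjusted p = 1.1e-06) in Null MEFs, from 37.1, 38.5 and 39.2 to 52.1, 55.2 and 55.5 CPM. In DKO MEFs its libraries overlapped, at 35.5, 37.1 and 33.8 CPM untreated and 34.9, 42.8 and 42.98 CPM treated, and the rise of 0.19 ± 0.06 missed the threshold without the first or the third untreated or the second or the third treated DKO library (0.12 to 0.16). The interaction was -0.32 ± 0.09 (SE, edgeR adjusted p = 0.0062). Ndufc1 went the other way: it was at 38.3, 37.6 and 37.7 CPM untreated and 36.5, 37.6 and 37.4 CPM treated in Null libraries and rose in DKO MEFs from 24.9, 24.8 and 24.98 to 29.7, 29.6 and 30.1 CPM, with an interaction of 0.29 ± 0.05 (SE, edgeR adjusted p = 0.00025).

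Ndufa4 and Ndufa4l2 encode related proteins, the second of which is known as a hypoxia-induced form. Ndufa4 was at 147, 147 and 145 CPM in untreated and 170.0, 185 and 189.9 CPM in treated Null libraries, a rise of 0.31 ± 0.05 (SE, edgeR adjusted p = 7.6e-06), and at 113, 109 and 108 CPM untreated and 111, 115 and 126 CPM treated in DKO libraries, where the change of 0.10 ± 0.05 missed the threshold. All Null libraries were above all DKO libraries.

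Ndufa4l2 had 23, 10 and 8 counts in the untreated Null libraries and 870, 887 and 858 counts after etoposide. In DKO MEFs it had 12, 6 and 0 counts untreated and 27, 25 and 28 counts after etoposide. The treated Null libraries were the only ones with a substantial level, 10.6, 10.7 and 12.5 CPM, and no treated library overlapped the untreated ones of its genotype in CPM. The ratio of treated to untreated counts per scaled depth was 57.8 (95% exact interval 42.5 to 80.7, counting error only) in Null and 4.34 (2.58 to 7.69) in DKO MEFs. The interaction was -3.75 ± 0.96 (SE, edgeR adjusted p = 0.0031), but -2.73 without the first untreated DKO library (adjusted p = 0.12), when the remaining 2 libraries of that group held 6 and 0 counts.

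**Figure D2:**
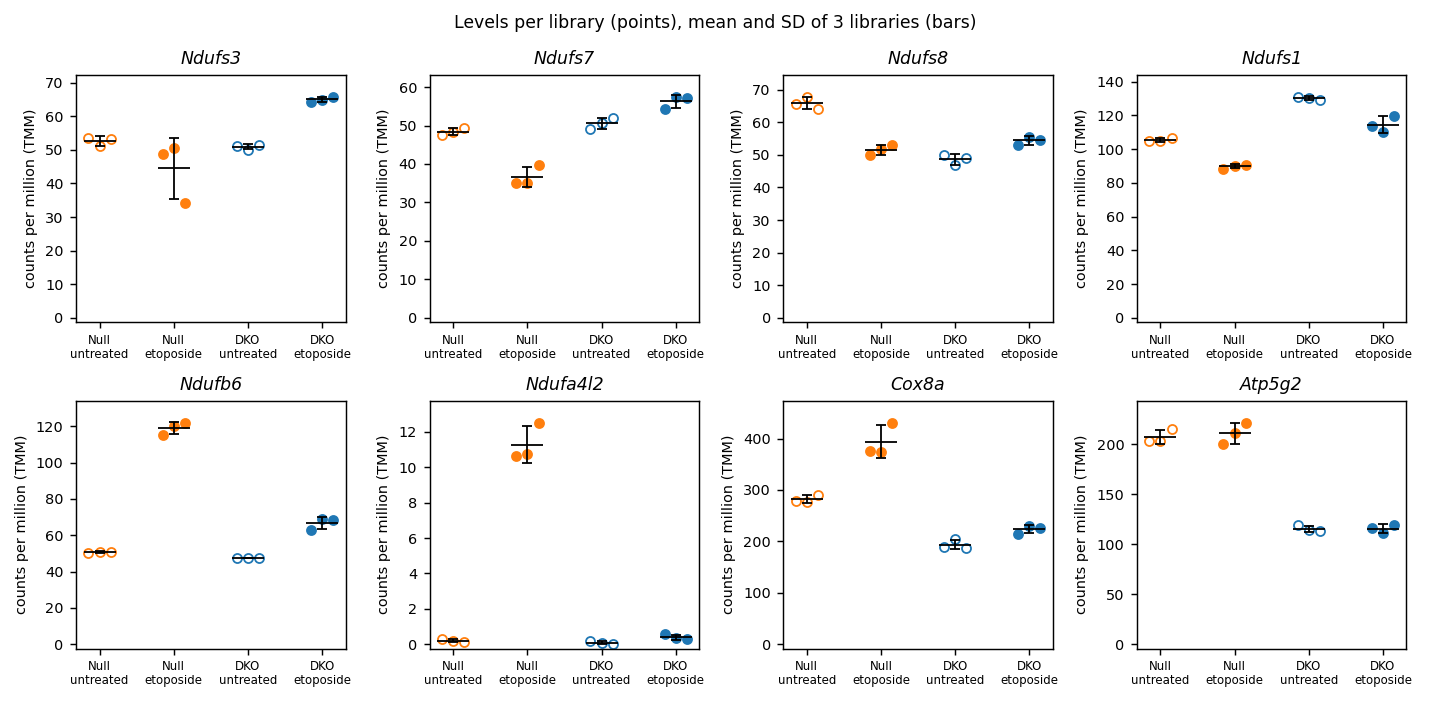
CPM after TMM scaling of 8 members in each library, open circles for untreated and filled circles for etoposide-treated, with the mean and SD of 3 libraries. Ndufs3, Ndufs7 and Ndufs8 moved in opposite directions in the 2 genotypes, Ndufs1 fell in both, Ndufa4l2 was at 10.6 to 12.5 CPM in treated Null libraries and at most 0.546 CPM elsewhere, and Atp5g2 differed by genotype.

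Complex II, the succinate dehydrogenase that also serves the TCA cycle, has 4 subunits, all encoded in the nucleus. Sdha, the flavoprotein, was at 134, 135 and 131 CPM in untreated and 135, 136 and 133 CPM in treated Null libraries and at 119.5, 122 and 121 CPM untreated and 131, 133 and 128 CPM treated in DKO libraries, a change called in DKO MEFs (0.11 ± 0.03 SE, edgeR adjusted p = 0.0035) and lost there without the first untreated DKO library (0.07). The interaction of Sdha was not called (0.10 ± 0.04 SE, edgeR adjusted p = 0.06). Sdhb, the iron-sulfur subunit, was at 76.3, 72.7 and 74.3 CPM untreated and 69.7, 69.5 and 73.2 CPM treated in Null and at 69.05, 66.7 and 71.7 CPM untreated and 68.9, 74.5 and 75.4 CPM treated in DKO libraries, and was not called in either genotype. The untreated and treated libraries of Sdhb overlapped in both genotypes, and those of Sdha in Null MEFs.

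The 2 membrane anchors of complex II went apart. Sdhc was at 85.7, 81.7 and 81.3 CPM in untreated and 61.9, 64.7 and 67.8 CPM in treated Null libraries (-0.36 ± 0.04 SE, edgeR adjusted p = 2.5e-07), and at 85.8, 87.02 and 90.1 CPM untreated and 80.2, 81.6 and 83.4 CPM treated in DKO libraries (-0.10 ± 0.04 SE, edgeR adjusted p = 0.031). That smaller fall in DKO MEFs missed the threshold without the third untreated library (-0.08) and was a rise of 0.17 under scaling by library size alone. Sdhd was at 129, 136 and 129.6 CPM untreated and 145, 154 and 164 CPM treated in Null and at 166, 162 and 159 CPM untreated and 194, 205 and 209 CPM treated in DKO libraries, higher after etoposide in both (0.23 ± 0.04 SE, edgeR adjusted p = 0.00011 and 0.32 ± 0.04 SE, edgeR adjusted p = 3.7e-06) and, at a given treatment, higher in DKO than in Null libraries.

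In complex III, 5 of 8 genes rose and 1 fell in Null, and 7 rose in DKO MEFs, where 42.3% of all genes rose and 37.2% fell in Null and 43.7% rose in DKO MEFs. Uqcrq, which supports the cytochrome b site, rose most, from 102, 95.7 and 94.7 to 128, 142 and 145 CPM in Null (0.50 ± 0.04 SE, edgeR adjusted p = 7.6e-09) and from 97.9, 98.5 and 95.3 to 149.9, 151 and 152 CPM in DKO MEFs (0.63 ± 0.04 SE, edgeR adjusted p = 4.6e-10), with treated libraries above untreated ones in both. Uqcr10, a small subunit, rose alongside (0.43 and 0.50).

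The core protein Uqcrc2, of whose exonic bases 19.8% overlap Pdzd9 on the other strand, was at 104, 104 and 100.2 CPM in untreated and 91.98, 97.6 and 94.9 CPM in treated Null libraries and at 134, 134 and 135 CPM untreated and 142, 140.3 and 148 CPM treated in DKO libraries. All DKO libraries were above all Null libraries. Its responses of -0.11 ± 0.03 in Null and 0.09 ± 0.03 in DKO MEFs were small, and the first turned to 0.05 under scaling by library size alone, and the second missed the threshold without the first or second untreated or the first or the third treated DKO library (0.06 to 0.08). The interaction, 0.21 ± 0.05 (SE, edgeR adjusted p = 0.0013), kept its call when any 1 library was left out. The Rieske iron-sulfur protein Uqcrfs1 rose in DKO MEFs (0.27 ± 0.04 SE, edgeR adjusted p = 6.9e-06), against 0.0029 ± 0.04 in Null, with an interaction of 0.27 ± 0.06 (SE, edgeR adjusted p = 0.00047).

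Complex IV was the complex with the largest median response in Null MEFs: 11 of 15 genes rose, none fell, and the median was 0.30, beside 0.19 with 11 rises in DKO MEFs (42.3% and 43.7% of all genes rose). These rises include Cox6b2 in Null and Cox4i2 in DKO MEFs, which passed the filter on low counts only through treated libraries. The interaction was negative for 5 of the 15 genes and positive for 1, against 24.4% and 29.6% of all genes. Several of its genes exist in a ubiquitous and a tissue-restricted form, and in these fibroblasts the ubiquitous form carried nearly all counts.

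Cox8a, the smallest subunit, was at 279, 277 and 291 CPM in untreated and 377, 373 and 430.3 CPM in treated Null libraries, and at 189.8, 204 and 187 CPM untreated and 214, 229 and 226 CPM treated in DKO libraries. Treated libraries were higher in either genotype, and all DKO libraries were below all Null libraries. The responses were 0.48 ± 0.05 (SE, edgeR adjusted p = 9.9e-08) and 0.21 ± 0.05 (SE, edgeR adjusted p = 0.0014), with an interaction of -0.27 ± 0.07 (SE, edgeR adjusted p = 0.0033).

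Cox4i1, the ubiquitous form of the main regulatory subunit, was at 343, 347 and 333 CPM untreated and 447, 467 and 487 CPM treated in Null and at 324, 324 and 327 CPM untreated and 349, 378 and 386 CPM treated in DKO libraries, rising by 0.45 ± 0.04 and 0.19 ± 0.04 (interaction -0.26 ± 0.06 SE, edgeR adjusted p = 0.0007). Cox4i2 never exceeded 22 counts in a library: it had 1, 0 and 5 counts untreated and 2, 12 and 15 counts treated in Null and 7, 2 and 1 counts untreated and 8, 7 and 22 counts treated in DKO libraries. Treated and untreated libraries overlapped in both, and the called rise in DKO MEFs (adjusted p = 0.049) was lost in DESeq2 (adjusted p = 0.12) and without any of 4 libraries, the second or the third untreated and the first or the third treated one (adjusted p = 0.074 to 0.23). That rise was lost in 9 of 13 alternatives in all. Cox4i2 passed the filter on low counts only through treated libraries, so it was tested because it was high there.

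Cox6a1, the ubiquitous form, was at 159.6, 153 and 156 CPM untreated and 169.6, 171 and 184 CPM treated in Null libraries and at 155, 162 and 157 CPM untreated and 156, 158 and 164 CPM treated in DKO libraries, a rise in Null MEFs (0.16 ± 0.04 SE, edgeR adjusted p = 0.00064) that did not pass the test in DKO MEFs (0.02 ± 0.04). Its muscle form Cox6a2 had 50, 37 and 41 counts untreated and 65, 32 and 44 counts treated in Null and 30, 13 and 8 counts untreated and 47, 92 and 142 counts treated in DKO libraries. The untreated DKO libraries were low, overlapping only the treated Null libraries, and the treated DKO libraries were the highest, at 0.951, 1.26 and 1.41 CPM. The response was -0.0025 ± 0.34 in Null and 2.41 ± 0.36 (SE, edgeR adjusted p = 1.1e-05) in DKO MEFs, with an interaction of 2.41 ± 0.51 (SE, edgeR adjusted p = 0.00065), and the deficit of untreated DKO libraries (-1.37 ± 0.43 SE, edgeR adjusted p = 0.0093) was -1.01 without the second of them (adjusted p = 0.073). Summed striated muscle markers were at 6.27 to 6.38 CPM in those treated DKO libraries and at 38.7 to 43.8 CPM in treated Null libraries. Only 2 of these 8 markers reached 1 CPM in any library, and their part in the result was not tested.

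Cox6b1, the ubiquitous form, rose from 118, 119 and 110.4 to 119.7, 141 and 144 CPM in Null MEFs (0.22 ± 0.05 SE, edgeR adjusted p = 0.0014) and stood at 128, 127 and 124 CPM untreated and 139, 136 and 146 CPM treated in DKO libraries, where the rise of 0.15 ± 0.05 was lost when any library but the second treated one was left out (0.11 to 0.14). The testis form Cox6b2 had 1, 3 and 1 counts in untreated Null libraries and 19, 16 and 18 counts after etoposide. In DKO MEFs it had 3, 0 and 1 counts untreated and 4, 2 and 3 counts treated. The gene passed the filter on low counts only through the treated Null libraries, so it was tested because it was high there. Treated Null libraries stood apart from all others, with a ratio of counts per scaled depth of 9.60 (95% exact interval 3.87 to 30.8) against 2.20 (0.613 to 9.76) in DKO MEFs, and the interaction did not pass the test (-2.11 ± 1.47 SE, edgeR adjusted p = 0.24).

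Cox7a2, the ubiquitous form, was at 101, 95.8 and 99.7 CPM untreated and 118, 119 and 128 CPM treated in Null libraries and at 109, 112 and 106 CPM untreated and 116, 122 and 137 CPM treated in DKO libraries (0.30 and 0.20, both called). Its muscle form Cox7a1 had 19, 9 and 9 counts untreated and 23, 21 and 21 counts treated in Null and 4, 14 and 3 counts untreated and 8, 13 and 12 counts treated in DKO libraries, and passed no test. Cox7a2l was at 161, 159 and 159 CPM untreated and 203, 202 and 217 CPM treated in Null and at 124, 124 and 123 CPM untreated and 129, 135 and 138 CPM treated in DKO libraries, with all Null above all DKO libraries. It had responses of 0.38 ± 0.04 and 0.12 ± 0.04, the second lost without the first or second untreated or the third treated DKO library (0.08 to 0.09), and an interaction of -0.26 ± 0.05 (SE, edgeR adjusted p = 0.00029). Cox7b rose in Null MEFs (0.22, from 117, 119.9 and 112 to 126, 141 and 141 CPM), with 0.10 in DKO MEFs (158, 154 and 161 to 162, 169 and 176 CPM) and no called interaction.

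In complex V, 8 of 17 genes rose and 3 fell in Null MEFs (42.3% and 37.2% of all genes), and 8 rose and 1 fell in DKO MEFs (43.7% and 31.5% of all genes). Subunits of the catalytic core differed among themselves: Atp5a1 (alpha) was -0.15 ± 0.03 in Null MEFs, a fall that became 0.01 under scaling by library size alone, Atp5b (beta) was 0.0018 ± 0.03, and Atp5c1 (gamma) fell in Null (-0.25 ± 0.04 SE, edgeR adjusted p = 6.8e-06, from 214, 217 and 209 to 172, 182 and 184 CPM) and in DKO MEFs (-0.18 ± 0.04 SE, edgeR adjusted p = 0.0003, from 209.7, 201 and 210.1 to 176, 180.2 and 191 CPM), the second turning to 0.09 under scaling by library size alone.

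Atp5g1, Atp5g2 and Atp5g3 encode an identical mature c subunit, the proton-carrying ring of the enzyme, with different import sequences. Atp5g2 was at 204, 203 and 215 CPM in untreated and 200.3, 211 and 221 CPM in treated Null libraries, and at 119, 114 and 113 CPM untreated and 117, 111 and 119 CPM treated in DKO libraries. Etoposide left it within the spread of the libraries (0.03 ± 0.04 in Null and 0.0008 ± 0.04 in DKO MEFs), and all DKO libraries were below all Null libraries.

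Atp5g1 was at 48.4, 56.5 and 49.5 CPM untreated and 46.4, 51.3 and 49.2 CPM treated in Null and rose from 44.5, 43.1 and 47.3 to 55.99, 56.6 and 54.4 CPM in DKO MEFs (0.31 ± 0.06 SE, edgeR adjusted p = 0.00011, interaction 0.38 ± 0.08 SE, edgeR adjusted p = 0.00062). Atp5g3 was at 169.8, 166 and 171 CPM untreated and 173, 181 and 178 CPM treated in Null and rose from 135, 141 and 142 to 158, 169 and 168 CPM in DKO MEFs (0.24 ± 0.04 SE, edgeR adjusted p = 9.2e-06, interaction 0.17 ± 0.05 SE, edgeR adjusted p = 0.008, which missed the threshold in DESeq2). Per kb, Atp5g2 and Atp5g3 were at 368 and 228 CPM over all libraries and Atp5g1 at 84.3.

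In Null MEFs Atp5s and Atp5sl, which belong to complex V by name only, had the largest rises in complex V. Atp5sl rose from 10.2, 9.11 and 9.95 to 13.6, 12.9 and 13.9 CPM in Null (0.46 ± 0.06 SE, edgeR adjusted p = 3.6e-06) and from 10.3, 11.01 and 10.4 to 19.5, 20.1 and 19.6 CPM in DKO MEFs (0.90 ± 0.06 SE, edgeR adjusted p = 4.2e-10), with an interaction of 0.44 ± 0.09 (SE, edgeR adjusted p = 0.0004). Atp5s rose in Null MEFs, from 3.27, 3.15 and 3.13 to 4.20, 5.08 and 4.53 CPM (0.53 ± 0.12 SE, edgeR adjusted p = 0.00048), and was at 3.53, 2.79 and 2.85 CPM untreated and 3.28, 3.29 and 3.53 CPM treated in DKO libraries, which overlapped. Treated libraries of Atp5sl were above untreated ones in both genotypes.

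Members are short genes, with a median span of 7.46 kb against 23.1 kb for the 15086 tested genes with coordinates, and the etoposide response of other genes differed by span. In Null MEFs the 2867 other genes of 3 to 10 kb had a median of 0.22 beside 0.20 for the 40 members of that span, those of up to 3 kb 0.14 beside 0.17 for 15 members, and those of 10 to 30 kb 0.15 beside 0.05 for 23 members. In DKO MEFs the same genes had medians of 0.24 beside 0.16 for the members of 3 to 10 kb, 0.22 beside 0.24 up to 3 kb and 0.20 beside 0.12 from 10 to 30 kb. Other genes over 100 kb had a median of -0.38 in Null and -0.26 in DKO MEFs. The 1 member of that span, Ndufs4, was at -0.28 in Null and -0.09 in DKO MEFs.

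Other mitochondrial gene lists are given beside the members, by counts of tested genes, to be read against the 42.3% of all genes that rose and 37.2% that fell in Null MEFs and the 43.7% and 31.5% in DKO MEFs. In Null MEFs 29 of 77 mitochondrial ribosomal protein genes rose and 25 fell (median 0.03), and in DKO MEFs 58 rose and 5 fell (median 0.25), with 45 positive and 9 negative interactions (29.6% and 24.4% of all genes). Of 14 TCA cycle genes 2 rose and 9 fell in Null (median -0.26), and 3 rose and 7 fell in DKO MEFs (median -0.10). Cytosolic ribosomal protein genes, 80 in all, rose in 63 cases and fell in 2 in Null (median 0.27), and 58 of them rose in DKO MEFs (median 0.21).

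Assembly factors of the complexes had a middle 50% from -0.27 to 0.54 in Null and from -0.10 to 0.57 in DKO MEFs, where the members had 0.0029 to 0.38 and 0.10 to 0.26. Of 44 tested, 21 rose and 15 fell in Null (42.3% and 37.2% of all genes) and 24 rose and 10 fell in DKO MEFs (43.7% and 31.5% of all genes), from 2.06 for the complex II factor Sdhaf1 to -1.05 for the heme synthesis enzyme Cox10 in Null, and from 1.71 for Sdhaf1 to -1.23 for the complex I factor Ndufaf3 in DKO MEFs. Of 12 electron carriers and transporters, 5 rose and 6 fell in Null and 4 and 2 in DKO MEFs. Cyc1, cytochrome c1 of complex III that the symbol rule does not take in, fell by 0.40 in Null and rose by 0.26 in DKO MEFs (interaction 0.66). Of 13 regulators of respiratory genes 5 rose and 6 fell in Null, among them Esrra (1.23) and, at mean levels of only 0.0554 CPM untreated and 0.329 CPM treated, Ppargc1a (2.47 ± 0.67 SE) upwards and Nrf1 (-1.33) and Pprc1 (-1.30) downwards, and 7 rose and 5 fell in DKO MEFs, where Nrf1 was at -0.82 and Pprc1 at -0.52.

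**Figure D3:**
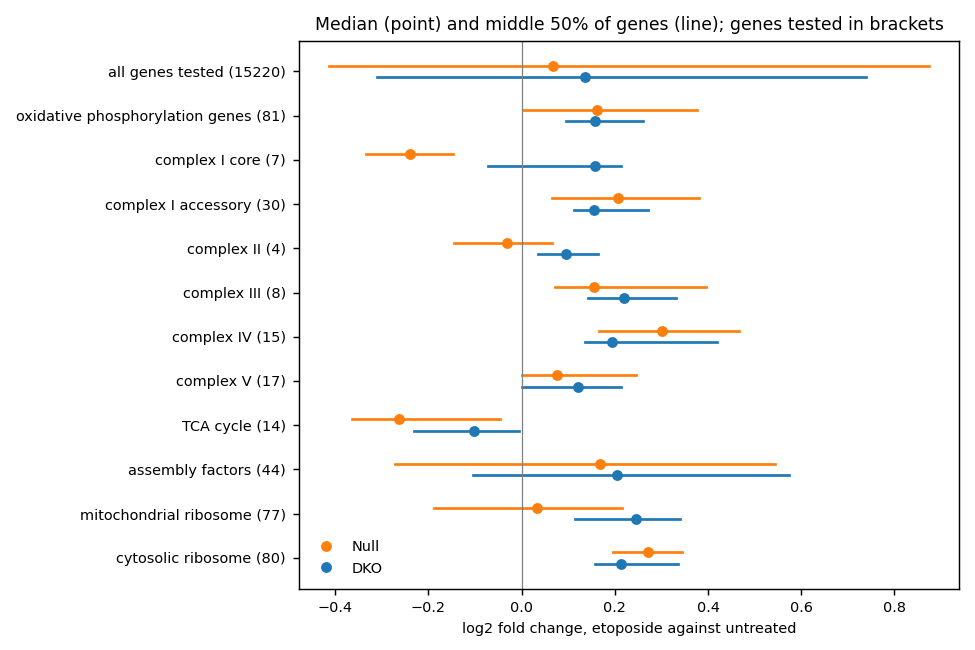
Median (point) and middle 50% (line) of the log2 fold change with etoposide in Null (orange) and DKO (blue) MEFs for the members, their complexes and other lists, with the number of genes tested in brackets. The complex I core has a median of -0.24 in Null and 0.16 in DKO MEFs. All genes tested spread more widely than the members, and more widely than the mitochondrial ribosome, cytosolic ribosome and TCA cycle lists.

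The second question was how the genotypes differed. Untreated, 22 of 81 genes were higher and 33 lower in DKO than in Null MEFs (67.9%, where 66.7% of all genes were called, 33.3% higher and 33.4% lower), with a median of -0.05 beside -0.02 over all genes. Under scaling by library size alone 10 were higher, and the median was -0.17 beside -0.14 over all genes. Of all 15220 genes 3977 were higher and 6392 lower under that scaling. After etoposide 26 were higher and 35 lower (75.3%, where 74.0% of all genes were called, 37.5% higher and 36.6% lower), with a median of -0.06 beside -0.0045. The 35 include Cox6b2 (-2.45), which passed the filter on low counts only through the treated Null libraries, so it was tested because it was high there. The comparisons share the libraries of the etoposide comparisons above. By complex, untreated, 11 genes of complex I were higher and 15 lower, 1 and 2 of complex II, 2 and 4 of complex III, 5 and 5 of complex IV, and 3 and 7 of complex V.

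The direction of the genotype differences was set beside that of the chromosome. For each member the median log2 difference of the other tested genes on its chromosome was taken, and untreated 50 of the 55 called members (90.9%) had the sign of that median, as did 67.2% of the other called genes. On the 6 chromosomes whose median was beyond 0.2 (X at 0.44, 1 at 0.30, 9 at 0.26, 3 at -0.27, 19 at -0.35 and 15 at -0.40) all 25 members, called or not, had it. Over the 75 members of at least 10 CPM, Pearson's r between a member's difference and its chromosome's median was 0.818 and Spearman's rho 0.796, as a description, since members of a chromosome share its median. After etoposide 46 of 61 called members (75.4%, where 61.9% of the other called genes did), and 21 of 22 on 5 such chromosomes, had the sign of their chromosome (r = 0.683, rho = 0.668). The share of the other genes on those chromosomes with that sign was not taken, nor were r and rho over other genes. The counts on those chromosomes and the correlations are thus not shown to be particular to the members. For the etoposide responses 44 of 57 called members in Null (77.2%, where 54.6% of the other called genes did) and 49 of 59 in DKO MEFs (83.1%, where 58.9% did) had the sign of their chromosome, with r of 0.281 and 0.205. Chromosome medians were small there, -0.11 to 0.13 in Null and -0.09 to 0.22 in DKO MEFs, and mostly positive. Since 45 of the 57 and 54 of the 59 called members rose, this match of signs largely repeats the rises given above. It does not show that members followed their chromosome. For the interaction 20 of 37 called members had the sign of their chromosome (54.1%, where 55.1% of the other called genes did), with r of 0.148.

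**Figure D4:**
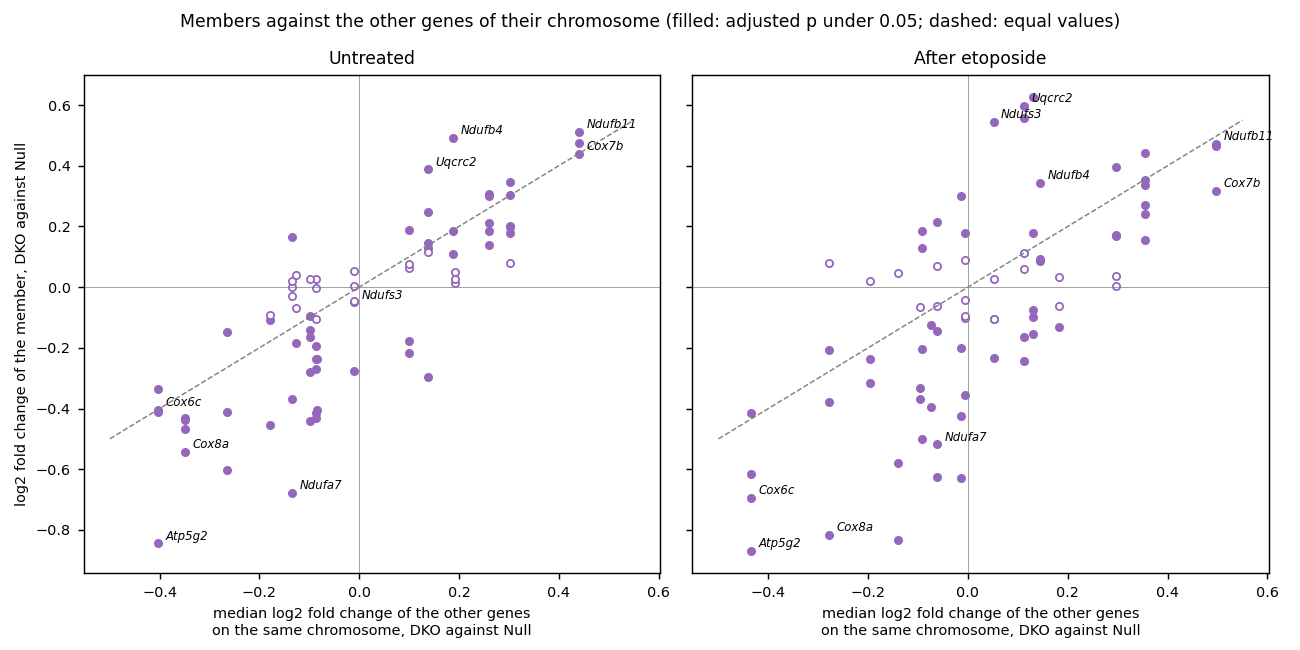
Log2 difference between DKO and Null MEFs of each member of at least 10 CPM against the median of the other tested genes on its chromosome, untreated (left) and after etoposide (right), with filled points for adjusted p under 0.05 and a dashed line of equal values. Untreated, members lie along the line from chromosome 15 (-0.40) to X (0.44), with Ndufa7 and Atp5g2 well below it.

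All 3 members on X were higher in DKO MEFs. Ndufb11, a complex I subunit, was at 68.1, 67.7 and 69.99 CPM in untreated Null and 98.9, 97.96 and 96.8 CPM in untreated DKO libraries (0.51 ± 0.04 SE, edgeR adjusted p = 1.1e-08), and at 73.9, 76.4 and 81.7 CPM in Null and 102, 106 and 114 CPM in DKO libraries after etoposide. Ndufa1 was at 27.1, 25.1 and 24.9 CPM in Null and 36.1, 35.4 and 35.8 CPM in DKO libraries untreated (0.47 ± 0.06 SE, edgeR adjusted p = 8.5e-07) and at 27.2, 28.5 and 31.2 CPM in Null and 38.6, 38.6 and 42.4 CPM in DKO libraries after etoposide. DKO libraries were above Null libraries with and without etoposide for both genes. Cox7b differed by 0.44 untreated and 0.32 after etoposide.

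Ndufb4, on chromosome 16, was higher in DKO MEFs as well, at 52.9, 49.8 and 48.4 against 35.6, 37.4 and 34.4 CPM untreated (0.49 ± 0.06 SE, edgeR adjusted p = 5.9e-07) and 52.1, 52.1 and 57.4 against 39.8, 41.98 and 45.9 CPM after etoposide, although 35.2% of its windows are shared with pseudogenes. Uqcrc2, on chromosome 7 (median 0.14), differed by 0.39 ± 0.03 (SE, edgeR adjusted p = 1.5e-08) untreated and by 0.60 ± 0.03 (SE, edgeR adjusted p = 3.4e-11) after etoposide.

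On chromosome 15 all 4 members (Atp5g2, Cox6c, Ndufa6 and Ndufb9) were lower in untreated DKO MEFs, and on chromosome 19 all 4 (Cox8a, Ndufb8, Ndufs8 and Ndufv1), of which Ndufs8 was at 0.08 after etoposide, not called. Atp5g2 differed by -0.84 ± 0.04 (SE, edgeR adjusted p = 5.9e-12) untreated and -0.87 ± 0.04 (SE, edgeR adjusted p = 3.2e-12) after etoposide, about 0.44 beyond the median of its chromosome in either case. Cox8a differed by -0.54 ± 0.05 (SE, edgeR adjusted p = 3.2e-08) and -0.82 ± 0.05 (SE, edgeR adjusted p = 9.8e-11), and Cox6c, another small complex IV subunit, by -0.40 and -0.69.

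Ndufa7, an accessory subunit whose promoter holds the 8-base E-box shown above, was at 83.8, 81.1 and 81.3 CPM in untreated Null and 51.6, 50.6 and 51.8 CPM in untreated DKO libraries (-0.68 ± 0.04 SE, edgeR adjusted p = 3.6e-10), and at 94.7, 101 and 106 CPM in Null and 66.9, 70.4 and 73.6 CPM in DKO libraries after etoposide (-0.52 ± 0.04 SE, edgeR adjusted p = 8.3e-09). Its chromosome 17 had a median of -0.13 untreated and -0.06 after etoposide, and Ndufa7 was the member of at least 10 CPM furthest below its chromosome in untreated cells. It rose with etoposide in both genotypes, by 0.30 in Null and 0.46 in DKO MEFs, without overlap of treated and untreated libraries.

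Some genotype differences passed the test after etoposide and not in untreated cells. Ndufb6 differed by -0.09 ± 0.04 untreated and -0.83 ± 0.04 (SE, edgeR adjusted p = 2.4e-12) after etoposide, Ndufa4l2 by -1.22 ± 0.71 and -4.96 ± 0.20 (SE, edgeR adjusted p = 3.1e-13), and Cox4i1 by -0.07 ± 0.04 and -0.33 ± 0.04 (SE, edgeR adjusted p = 6.5e-07). In the other direction Ndufs7 differed by 0.06 ± 0.05 untreated and 0.63 ± 0.05 (SE, edgeR adjusted p = 2.3e-09) after etoposide, Ndufs3 by -0.05 ± 0.09 and 0.55 ± 0.09 (SE, edgeR adjusted p = 4.1e-05), and Atp5sl by 0.12 ± 0.07 and 0.56 ± 0.06 (SE, edgeR adjusted p = 1.4e-07). These 6 genes are examples, each with a called interaction. In all, 6 members were called higher and 10 lower in DKO MEFs only after etoposide. The share of all genes with such calls was not taken. Among the members not given as examples, Uqcrq, Atp5s and Cox6b2 had no called interaction. In untreated cells Ndufb6 passed the test in 6 of 15 alternatives (-0.09 to -0.21), and Cox4i1 and Ndufa4l2 in 2 of 15 each. Called higher untreated and lower after etoposide were 1.23% of the members and 5.37% of all genes, and the reverse 3.7% and 6.08%. Of the 4 genes Ndufc2, Atp5g1, Cox6a2 and Uqcrfs1, called in opposite directions untreated and after etoposide, Cox6a2 was at -1.37 and 1.05 and Uqcrfs1 at -0.09 and 0.18, where the untreated call of Uqcrfs1 was lost without any of 5 libraries (-0.10 to -0.08). The other two were Ndufc2 at 0.14 and -0.16 and Atp5g1 at -0.19 and 0.18. The untreated difference of Ndufc2 was lost without the second untreated DKO library (0.10) and under scaling by library size alone (0.02), and that of Atp5g1 after etoposide without the first treated Null library (0.14) and in DESeq2 (0.12).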

How the data were processed

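Libraries were made from ribosomal RNA-depleted total RNA with a stranded kit. Per the labels' processing notes the authors used mm10, HISAT2 and featureCounts, whereas the study's methods name HTSeq, and the deposited table ends in 5 summary lines of the HTSeq kind. Versions and the strand setting are not given in the sources used here. The deposited values are raw counts per gene. Depth and tests rest on gene lines only. The summary lines held 20.2% to 27.3% (no feature) and 15.9% to 20.5% (not unique) of a library's entries.

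Counts of all 24421 genes and 12 libraries were fitted in 1 model with a mean per group in edgeR 4.0.16 (R 4.3.3; filterByExpr, 15220 genes tested, TMM factors 0.884 to 1.09, glmQLFit and glmQLFTest), with Benjamini-Hochberg adjustment over all genes tested and calls at an adjusted p under 0.05. SE is the log2 fold change divided by the square root of F. Depth differed 2.29-fold between libraries. Intervals of count ratios cover counting error only. Alternatives were DESeq2 1.42.0, limma-trend 3.58.1, edgeR with DESeq2 size factors or library size alone, no or a stricter filter, the replicate block, the libraries of a comparison alone and leaving out each library. The model was tested on simulated data.

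Members and lists were chosen with earlier results of these data known. Genes named with values in each library were taken by a rule (the 3 largest rises and falls of each comparison among called members of at least 10 CPM without overlap of the groups, which the interaction did not require, the Sdh genes, the families with several forms, and the gene furthest from the median of each complex), and other members described, such as Ndufv1, Uqcrfs1 and Cox6c, were chosen after their values were seen. Gene positions and lengths are from GENCODE M21 (GRCm38), matched by symbol for 83 genes, by synonym for 1 and by 1 of several entries for 1. 1 tested member enters the counts and medians but is not reported here by itself.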

Additional observations from a re-analysis of the deposited data

Results flagged for a closer look

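The response to etoposide differed between Null and DKO MEFs, by the interaction term of edgeR's quasi-likelihood model (adjusted p under 0.05, 3 libraries a group), for 37 of the 81 genes tested (45.7%, where 54.0% of all genes were called). The values below are the response in DKO minus the response in Null MEFs on the log2 scale.

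In complex I the interaction was negative for Ndufa4l2 (-3.75), Ndufb6 (-0.74), Ndufb2 (-0.32), Ndufc2 (-0.31), Ndufa8 (-0.29), Ndufa6 (-0.28), Ndufa4 (-0.21), Ndufa13 (-0.18) and Ndufa11 (-0.16). It was positive for Ndufs3 (0.60), Ndufs7 (0.56), Ndufs8 (0.52), Ndufc1 (0.29), Ndufa9 (0.28), Ndufv1 (0.22), Ndufs4 (0.19), Ndufb5 (0.17) and Ndufa7 (0.16). That of Ndufa4l2 was lost without the first untreated DKO library, in 1 of 20 alternatives. Calls were lost more often for Ndufa7, Ndufb5 and Ndufs4 (12 of 20 each) and Ndufa11 (5 of 20).

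In complexes II and III it was positive for Sdhc (0.26), Sdhb (0.15), Uqcrfs1 (0.27) and Uqcrc2 (0.21) and negative for Uqcrc1 (-0.13). In complex IV it was negative for Cox6c (-0.29), Cox8a (-0.27), Cox4i1 (-0.26), Cox7a2l (-0.26) and Cox6a1 (-0.15) and positive for the muscle form Cox6a2 (2.41). In complex V it was positive for Atp5sl (0.44), Atp5g1 (0.38), Atp5f1 (0.17), Atp5g3 (0.17), Atp5b (0.12) and Atp5a1 (0.11) and negative for Atp5l (-0.21) and Atp5d (-0.15). Of these, the calls of Atp5a1 were lost in 13, of Sdhb in 11, of Atp5b in 10, of Atp5l, Cox6a1 and Uqcrc1 in 4 each and of Atp5f1 and Atp5g3 in 2 of 20 alternatives.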

How the results depend on the processing

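With library size alone the members' median was 0.33 in Null and 0.43 in DKO MEFs with etoposide, -0.17 between untreated genotypes and 0.10 for the interaction, the members lower were 6 with etoposide in Null and 1 in DKO MEFs, those higher in untreated DKO MEFs 10, and the positive and negative interactions 31 and 9. Over all 15220 genes 4396 and 3006 were lower with etoposide in Null and DKO MEFs, and 3977 were higher in untreated DKO MEFs. The positive and negative interactions of all genes were 5735 and 3055. Under that scaling Atp5a1 (0.0148), Ndufa9 (0.0193) and Uqcrc2 (0.0525) did not fall in Null MEFs, Atp5c1 (0.0912), Ndufb10 (0.14), Ndufs1 (0.0893) and Sdhc (0.17) did not fall in DKO MEFs, and Atp5j (-0.0117) was not higher in untreated DKO MEFs. With DESeq2's size factors in edgeR the median was 0.21 for etoposide in Null MEFs, -0.12 between the genotypes after etoposide and -0.0659 for the interaction, with 12 positive interactions. DESeq2 itself gave 0.21, -0.12, -0.0572 and 12, and a filter at a mean of 1 CPM 0.25, -0.13, -0.0432 and 13. Positive interactions over all 15220 genes were 3797 with those size factors and 3937 in DESeq2, and 3816 of 12026 with that filter. Without a filter the median in DKO MEFs was 0.12.

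When 1 library at a time was left out, the median ranged from 0.12 to 0.20 for etoposide in Null, from 0.12 to 0.15 in DKO MEFs and from -0.0413 to 0.0313 for the interaction. Of the called members, 52 of 57 kept call and direction in Null, 40 of 59 in DKO MEFs, 45 of 55 between untreated genotypes, 54 of 61 after etoposide and 26 of 37 for the interaction when any 1 library was left out. Under the other alternatives 49, 38, 42, 55 and 21 did, in the same order.

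With the replicate number as a replicate block, 46 members rose and 12 fell in Null, 53 and 5 in DKO MEFs, and 20 and 17 interactions were positive and negative. Of all 15220 genes 6460 rose and 5651 fell in Null, 6633 and 4783 in DKO MEFs, and 4485 and 3722 interactions were positive and negative. Libraries of the same number did not deviate together (correlations of -0.032 to 0.0429), so the numbers were not taken as pairs. The legacy form of the quasi-likelihood fit, chosen after seeing the data, also gave 20 positive and 17 negative interactions of members, beside 4553 and 3757 over all genes. Cox4i2, Cox6b2 and Cox7a1 had at most 23 counts in a library, which limits their precision.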
